A study of Gallus gallus with 6 samples.

Results

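The genes described here encode 10 enzymes that set the supply of deoxynucleotides, the building blocks of DNA. They were taken by symbol (RRM1, RRM2, RRM2B, TK1, TYMS, DUT, DCTD, DTYMK, DCK and SAMHD1), and all 10 were found among the 24433 genes of the table. The cells were chicken primary myoblasts, muscle precursor cells from leg muscle. They overexpressed ANKRD9 in 3 libraries and carried pcDNA3.1, the empty expression vector, in 3 control libraries. The labels give no time after transfection, age or strain. Nor do they say that replicates were grown separately, and every p-value below therefore reflects the spread among these libraries alone, some of which may be technical. ANKRD9 is an ankyrin repeat protein linked to Cullin-RING ubiquitin ligases, and the study asked about its part in the metabolism of inosine monophosphate.

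Ribonucleotide reductase makes deoxynucleotides from ribonucleotides. It joins a large catalytic subunit, RRM1, to a small subunit, which in mammals is RRM2 in dividing cells and RRM2B, a target of p53, in resting or damaged cells. The pyrimidine branch then makes thymidylate: DCTD and DUT provide dUMP, TYMS methylates it to dTMP, and DTYMK phosphorylates that product. TK1 and DCK salvage nucleosides, and SAMHD1 works in the other direction, cleaving deoxynucleoside triphosphates. In mammals several of these genes are expressed mainly in S phase, when a proliferating myoblast copies its DNA, and their levels drop once the cell leaves the cycle to differentiate.

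The values are FPKM, fragments scaled to gene length and library total. Levels of different genes can be compared only as far as the length given for each gene holds, which was not tested. Each library held 16158627 to 26310089 reads, as recovered from the FPKM. ANKRD9 itself stood at 90.5, 104 and 101 FPKM in the ANKRD9 libraries, against 9.46, 8.16 and 10.1 FPKM in the pcDNA3.1 libraries, and was called higher (log2 fold change 3.29 ± 0.08, SE; limma, adjusted p = 5.44e-06). Reads of the construct and of the chromosomal gene are not distinguished. Of 12 listed myoblast markers, 11 were in the table and 10 were tested, of which 4 were lower and 3 higher. The number lower was 2 without ANKRD9 replicate 1 or 2. It was 5 with limma-voom on recovered reads, with library weights or at a mean of at least 5 FPKM. Among all genes tested, 19.8% were lower and 16.3% higher. Of the 4 lower, only MYOD1 is described here. It averaged 116 ± 11.3 FPKM with ANKRD9 and 199 ± 6.77 FPKM with pcDNA3.1 (SD, n = 3 each). MYOD1 overlaps noncoding genes on the opposite strand. The 3 higher were MYF5, MYF6 and DES. They averaged 370, 33.4 and 212 FPKM with ANKRD9, against 296, 27.1 and 168 FPKM with pcDNA3.1. The median log2 fold change of the tested myoblast markers was -0.03, and -0.16 over the 9 tested at a mean of at least 5 FPKM. PAX3, which marks muscle progenitors of the embryo, stayed under 1 FPKM. Mitochondrial genes took 0.438% to 0.549% of reads in the ANKRD9 libraries and 0.316% to 0.374% in the pcDNA3.1 libraries. The part of that difference in the results was not tested.

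With ANKRD9, 8 of the 10 supply genes were lower and none was higher at an adjusted p under 0.05 (limma on log2(FPKM + 1), adjusted over the 11685 genes tested). RRM2B and SAMHD1 did not pass. The falls ran from 1.13-fold for DCK to 1.83-fold for DCTD, taken as ratios of mean FPKM. Over all genes tested the calls came to 36.0% in either direction, with 19.8% lower and 16.3% higher. Lower genes were 54.9% of these calls, but 47.8% with limma-voom on recovered reads and 47.2% after scaling to the sum of recovered reads, so which direction was more frequent over all genes turned with the scaling. Of the 10 supply genes, 7 were lower and none higher in both of those fits. The median log2 fold change was -0.42 over the 10 genes and -0.0063 over all genes tested. In the same 8 genes every ANKRD9 library lay below every pcDNA3.1 library, a pattern found in 26.9% of all genes tested. The opposite pattern, found in 23.7% of all genes, occurred in none of the 10. The number of higher genes was also 0 at an unadjusted p under 0.05 and with limma-voom on recovered reads. RNA from whole cultures was measured, so fewer cells in S phase and less RNA per cell cannot be told apart. The plot of levels by library shows the 10 genes.

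**Figure D1:**
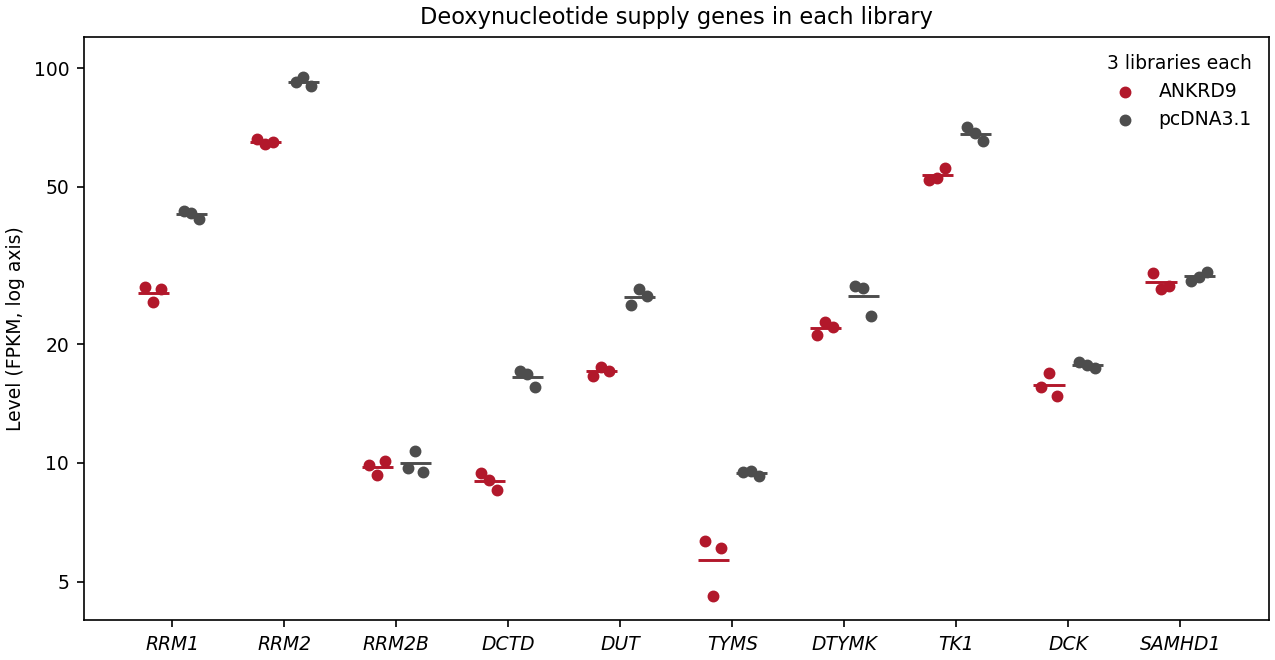
Level in FPKM (vertical, log axis) of the 10 supply genes in each library, with ANKRD9 in red on the left and pcDNA3.1 in grey on the right of each pair. Points are libraries and lines are means of 3; the groups overlap for RRM2B and SAMHD1, and for the other 8 genes all ANKRD9 points lie lower.

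RRM1, the catalytic subunit of ribonucleotide reductase, lies on chromosome 1: 197157405-197175421 (plus strand, GRCg6a). It stood at 27.9, 25.6 and 27.6 FPKM in the ANKRD9 libraries, against 43.4, 42.8 and 41.6 FPKM in the pcDNA3.1 libraries. Both sets were tight, and the lowest pcDNA3.1 library was well above the highest ANKRD9 library. The level was 1.58-fold lower with ANKRD9 (log2 fold change -0.64 ± 0.05, SE; limma, adjusted p = 1.74e-04). Only 1.27% of the genes tested had a larger fall on that scale.

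RRM2, the main small subunit, was the highest of the 10 genes in both groups. It lies on chromosome 3: 96516162-96521224 (plus strand). Its level was 66.1, 64.3 and 65.0 FPKM with ANKRD9, against 92.2, 95.1 and 89.9 FPKM with pcDNA3.1. The ANKRD9 libraries differed from each other by less than 2 FPKM, and the gap to the pcDNA3.1 libraries was many times that. The mean was 1.42-fold lower (log2 fold change -0.50 ± 0.04, SE; limma, adjusted p = 1.91e-04).

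RRM2B, the alternative small subunit, lies on chromosome 2: 128961926-128978263 (minus strand). It stood at 9.91, 9.33 and 10.1 FPKM with ANKRD9, against 9.73, 10.7 and 9.49 FPKM with pcDNA3.1. The groups overlapped: the highest value was in pcDNA3.1 replicate 2 and the lowest in ANKRD9 replicate 2. The log2 fold change was -0.03 with a 95% interval of -0.16 to 0.11 (limma, adjusted p = 0.753). Its sign turned to 0.0037 without ANKRD9 replicate 2 and to 0.022 without pcDNA3.1 replicate 2. Of 26 tested targets of p53 from a list drawn up largely from mammals, 10 were higher and 4 (15.4%) lower with ANKRD9. The shares over all genes tested were 16.3% higher and 19.8% lower, so the lower targets did not exceed their share. PMAIP1, the target of smallest adjusted p, averaged 244 ± 17.3 FPKM with ANKRD9 and 52.0 ± 3.61 FPKM with pcDNA3.1 (SD, n = 3 each). CDKN1A, which encodes an inhibitor of cyclin-dependent kinases, averaged 451 ± 4.76 FPKM with ANKRD9 and 282 ± 12.6 FPKM with pcDNA3.1 (SD, n = 3 each). The number of lower p53 targets was 1 without ANKRD9 replicate 1 or pcDNA3.1 replicate 3, and 2 without ANKRD9 replicate 2 or pcDNA3.1 replicate 2. The number of higher targets was 9 to 10 in the fits without a single library.

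The small-subunit messages were divided differently in the groups. RRM2B supplied 13.0%, 12.7% and 13.5% of the small-subunit FPKM (RRM2 plus RRM2B) in the ANKRD9 libraries, against 9.54%, 10.1% and 9.55% in the pcDNA3.1 libraries. No share of one group reached into the other. The sum of both small subunits was 2.73, 2.88 and 2.72 times RRM1 with ANKRD9, against 2.35, 2.47 and 2.39 times with pcDNA3.1. These values did not overlap either. In all, 8 ratios between supply genes were compared by exact two-sided permutation tests. Among them the plan named only the RRM2B share and the ratio of small to large subunits. For both quantities the exact permutation p was 0.1, which is the lowest that 3 against 3 can reach, or 0.114 after Benjamini-Hochberg adjustment over the 8. A ratio within a library does not depend on how libraries were scaled to each other. The ratios rest on the same values as the calls of single genes, so they are not separate results.

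DCTD, the deaminase that turns dCMP into dUMP, had the largest fall of the 10. It lies on chromosome 4: 39967661-40022866 (plus strand). The level was 9.44, 9.04 and 8.52 FPKM with ANKRD9, against 17.1, 16.8 and 15.6 FPKM with pcDNA3.1. Even the highest ANKRD9 library was far under the lowest pcDNA3.1 library. The mean was 1.83-fold lower (log2 fold change -0.81 ± 0.05, SE; limma, adjusted p = 1.51e-04), and 0.445% of the genes tested fell further.

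DUT, which hydrolyses dUTP to dUMP and so keeps uracil out of DNA, lies on chromosome 10: 10589871-10600015 (plus strand). It stood at 16.6, 17.5 and 17.1 FPKM with ANKRD9, against 25.2, 27.6 and 26.4 FPKM with pcDNA3.1. The groups were far apart. The mean was 1.55-fold lower (log2 fold change -0.60 ± 0.05, SE; limma, adjusted p = 1.97e-04). DUT overlaps a long noncoding RNA gene on the opposite strand, whose level was at most 0.717 FPKM in any library. DCTD stood at 0.568, 0.515 and 0.500 times DUT with ANKRD9, against 0.678, 0.610 and 0.591 times with pcDNA3.1 (exact two-sided permutation p = 0.1, n = 3 each).

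TYMS, thymidylate synthase, was the lowest of the 10 genes in both groups and lies on chromosome 2: 101940865-101950968 (minus strand). Its level was 6.34, 4.62 and 6.09 FPKM with ANKRD9, against 9.51, 9.57 and 9.27 FPKM with pcDNA3.1. ANKRD9 replicate 2 was lower than its fellows, on 172 reads, whereas the pcDNA3.1 libraries were almost equal. The mean was 1.66-fold lower (log2 fold change -0.65 ± 0.10, SE; limma, adjusted p = 0.00255). Counting error alone is 7.62% at 172 reads, against a coefficient of variation of 16.4% among the ANKRD9 libraries. Without ANKRD9 replicate 2 the log2 fold change of TYMS was -0.53 (limma, adjusted p = 0.00253).

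DTYMK, the kinase that takes dTMP to dTDP, lies on chromosome 9: 4951816-4957279 (plus strand). It stood at 21.0, 22.8 and 22.1 FPKM with ANKRD9, against 28.1, 27.7 and 23.6 FPKM with pcDNA3.1. The groups did not overlap, but pcDNA3.1 replicate 3 came close to the highest ANKRD9 library. The mean was 1.20-fold lower (log2 fold change -0.25 ± 0.07, SE; limma, adjusted p = 0.0273). The call was lost in 8 of 17 alternative fits. Among them were all fits without a single library other than pcDNA3.1 replicate 3 (adjusted p between 0.0531 and 0.0877). TYMS stood at 0.301, 0.203 and 0.275 times DTYMK with ANKRD9, against 0.339, 0.345 and 0.393 times with pcDNA3.1 (exact two-sided permutation p = 0.1, n = 3 each).

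**Figure D2:**
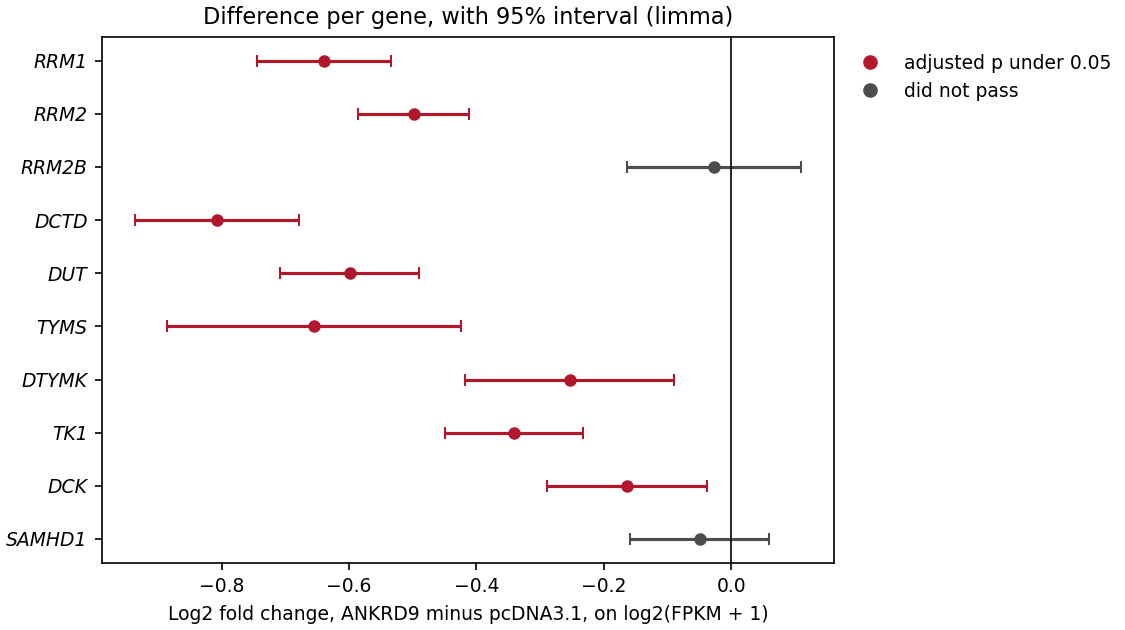
Log2 fold change (horizontal, ANKRD9 minus pcDNA3.1 on log2(FPKM + 1)) of the 10 supply genes with 95% intervals from limma; red marks an adjusted p under 0.05. DCTD stands lowest at -0.81, and the intervals of RRM2B and SAMHD1 include 0.

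Both salvage kinases were called lower, by smaller folds than the reductase subunits RRM1 and RRM2, though these differences between genes were not tested. TK1, the cytosolic thymidine kinase of dividing cells, lies on chromosome 18: 9860403-9861812 (plus strand). It was the highest of the 10 genes after RRM2, at 52.1, 52.7 and 56.0 FPKM with ANKRD9, against 70.8, 68.4 and 65.3 FPKM with pcDNA3.1. The groups did not overlap. The mean was 1.27-fold lower (log2 fold change -0.34 ± 0.05, SE; limma, adjusted p = 0.00176).

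DCK, the deoxycytidine kinase, also phosphorylates deoxyadenosine and deoxyguanosine and, in mammals, is made outside S phase as well. It lies on chromosome 4: 50129676-50140113 (plus strand). It stood at 15.5, 16.9 and 14.8 FPKM with ANKRD9, against 18.0, 17.7 and 17.4 FPKM with pcDNA3.1. The ANKRD9 libraries were all lower, though ANKRD9 replicate 2 was within 1 FPKM of the pcDNA3.1 libraries' lowest value. The mean was 1.13-fold lower, and the call was narrow (log2 fold change -0.16 ± 0.05, SE; limma, adjusted p = 0.0490). It was lost in 13 of 17 alternative fits (adjusted p up to 0.191), and of the fits without a single library only that without ANKRD9 replicate 2 retained it. The ratio of DCK to TK1 overlapped between the groups, at 0.298, 0.320 and 0.264 with ANKRD9 and 0.255, 0.259 and 0.266 with pcDNA3.1 (exact two-sided permutation p = 0.2, n = 3 each).

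SAMHD1, the triphosphohydrolase that removes deoxynucleotides and is known in mammals as a restriction factor for viruses, lies on chromosome 20: 630014-655765 (minus strand). It stood at 30.3, 27.6 and 28.1 FPKM with ANKRD9, against 28.9, 29.7 and 30.4 FPKM with pcDNA3.1. The groups overlapped. The log2 fold change was -0.05 with a 95% interval of -0.16 to 0.06 (limma, adjusted p = 0.443). Of 44 tested interferon response genes, a class that includes SAMHD1 in some mammalian cells, 27 were higher and 3 lower with ANKRD9. The number lower was 1 without ANKRD9 replicate 1. Over all genes tested 16.3% were higher and 19.8% lower. TLDC2, on the opposite strand, overlaps SAMHD1 and reached at most 0.403 FPKM.

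Set against the synthetic subunit, SAMHD1 stood at 1.09, 1.08 and 1.02 times RRM1 with ANKRD9, against 0.666, 0.692 and 0.732 times with pcDNA3.1 (exact two-sided permutation p = 0.1, n = 3 each; 0.114 adjusted over the 8 ratios). With pcDNA3.1 every RRM1 value was above every SAMHD1 value, while with ANKRD9 their ranges overlapped. DCTD was likewise above RRM2B in every pcDNA3.1 library, and their ranges overlapped with ANKRD9. In both groups RRM2 came first, TK1 next and TYMS last. Other neighbours whose ranges overlapped were DUT and DCK with ANKRD9, and DTYMK with DUT and RRM2B with TYMS with pcDNA3.1.

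**Figure D3:**
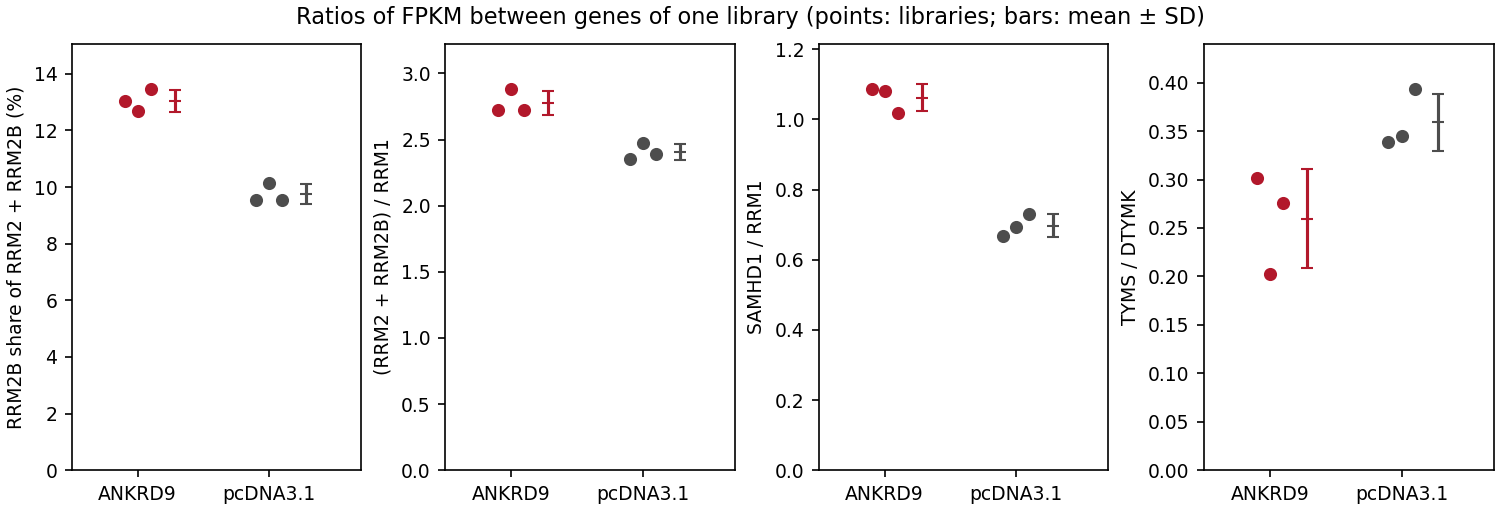
Ratios of FPKM between genes of the same library, with ANKRD9 in red on the left and pcDNA3.1 in grey on the right of each panel; points are libraries and bars are mean ± SD of 3. The RRM2B share, the ratio of small to large subunits and the ratio of SAMHD1 to RRM1 are higher in every ANKRD9 library, and the ratio of TYMS to DTYMK is lower.

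The S phase list gives the scale of these falls. It held 42 tested genes of origin licensing, the replication fork and chromatin assembly. Of these, 30 were lower and 1 higher (limma), beside 19.8% lower and 16.3% higher among all genes tested. The number lower was 22 to 27 in the fits without a single library. Over the 42 the median log2 fold change was -0.28. The values ran from -0.55 for UHRF1, a factor of DNA methylation upkeep, to 0.19 for SLBP, which binds histone messages. RRM1, TYMS, DUT and DCTD each fell further than all 42. RRM2 fell further than 40 of them, TK1 than 30, DTYMK than 19 and DCK than 13. The rank of TYMS leaned on ANKRD9 replicate 2. Without that library its log2 fold change was -0.53, short of the -0.55 of UHRF1 with all libraries. PCNA, the sliding clamp of the fork, averaged 203 ± 6.85 FPKM with ANKRD9 and 265 ± 13.5 FPKM with pcDNA3.1 (SD, n = 3 each). These ranks on log2(FPKM + 1), which understates changes of low genes, are a description, and the differences between genes were not tested. With 0.1 added in place of 1, the median log2 fold change was -0.31 for the S phase genes and -0.43 for the supply genes. The call of SLBP, the only higher gene, was lost in 5 of the 6 fits without a single library.

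Among 25 tested regulators of ribonucleotide reductase and SAMHD1, 11 were lower and 3, E2F5, E2F6 and CHEK2, were higher. The shares over all genes tested were 19.8% lower and 16.3% higher. CDK1, CDK2 and CCNA2 encode the kinases and the cyclin that phosphorylate SAMHD1 in mammals, and they were 1.60-fold, 1.52-fold and 1.55-fold lower with ANKRD9 (limma, adjusted p = 3.13e-04, 1.77e-04 and 1.77e-04). E2F1, a transcription factor of S phase genes, was 1.26-fold lower, at 26.1 ± 1.06 FPKM with ANKRD9 and 32.9 ± 1.39 FPKM with pcDNA3.1 (SD, n = 3 each; adjusted p = 0.00256). CCNF, like the 3 higher genes and SLBP named after its values were seen, encodes the cyclin that in mammals marks RRM2 for destruction. It averaged 4.21 ± 0.280 FPKM with ANKRD9 and 5.94 ± 0.314 FPKM with pcDNA3.1 (adjusted p = 0.00277). The number of lower regulators was 7 without ANKRD9 replicate 1 or 2, and the number higher was at most 1 without any one library.

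The folate cycle carries the carbon that TYMS adds. Of its 10 tested genes 6 were lower and none was higher (limma), beside 19.8% and 16.3% of all genes tested. At an unadjusted p under 0.05, 7 of the 10 were lower and 0 higher, and limma-voom gave 6 and 0. MTHFD1 was 1.35-fold lower (ratio of mean FPKM), the mitochondrial MTHFD1L 1.33-fold, and FPGS, which retains folates in the cell, 1.21-fold, although FPGS overlaps CDK9 on the same strand. MTHFD2 and SHMT1 did not pass, at 34.1 and 5.90 FPKM with ANKRD9 and 33.2 and 6.10 FPKM with pcDNA3.1.

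**Figure D4:**
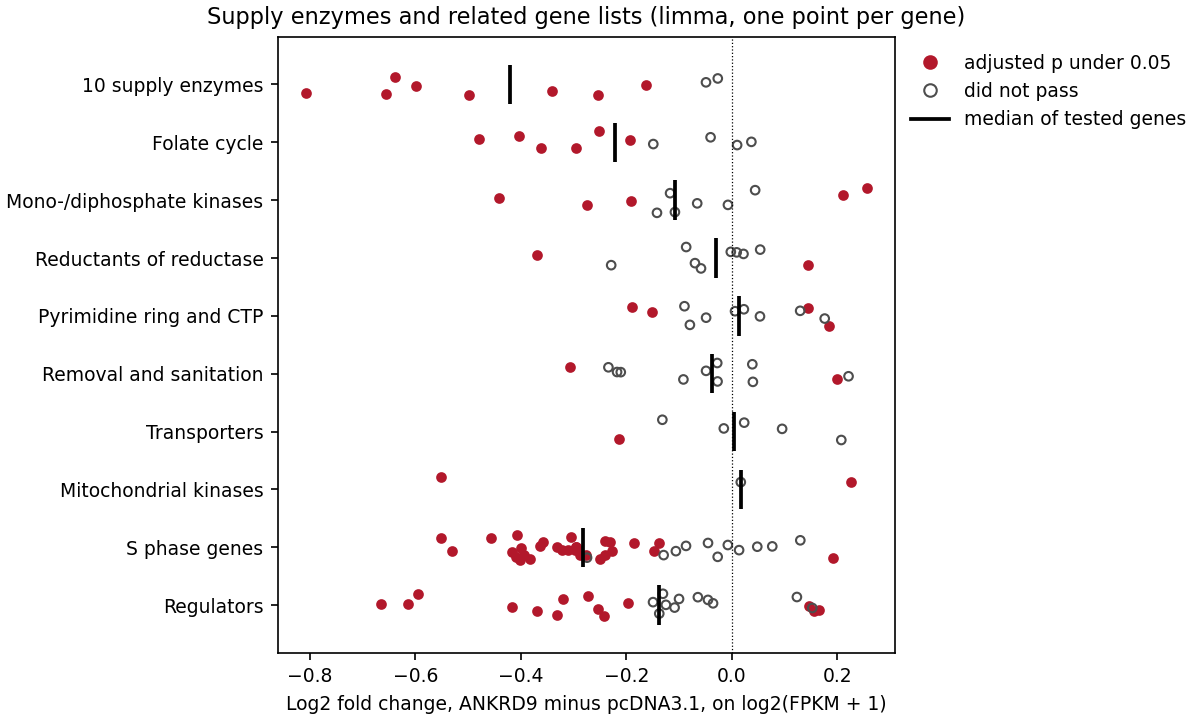
Log2 fold change (horizontal, ANKRD9 minus pcDNA3.1 on log2(FPKM + 1)) of every tested gene of the 10 supply enzymes and 9 related lists; filled red points have an adjusted p under 0.05 (limma), open points did not pass, and bars are medians. The medians stand at -0.42 for the supply enzymes, -0.28 for the S phase genes and -0.22 for the folate cycle.

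In the kinase, reductant, pyrimidine, removal and transporter lists, 0 to 3 genes per list were called in each direction. Beside the 19.8% lower and 16.3% higher among all genes tested, these counts show nothing particular to those lists, and the genes are given for their own values. Of 11 tested mono- and diphosphate kinases, 3 were lower and 2 higher. CMPK1, which phosphorylates CMP, UMP and dCMP, was lower by 1.22-fold (limma, adjusted p = 0.00107), and the adenylate kinase gene AK4 by 1.38-fold (adjusted p = 0.00184). CMPK2, a mitochondrial kinase that also belongs to the interferon response list, was higher, at 180 ± 0.741 FPKM with ANKRD9 and 151 ± 6.92 FPKM with pcDNA3.1 (SD, n = 3 each; adjusted p = 0.00394). NME2, a nucleoside diphosphate kinase, did not pass, at 498 ± 24.7 FPKM with ANKRD9 and 550 ± 40.2 FPKM with pcDNA3.1. NME3 was 1.15-fold lower (adjusted p = 0.0270), and this call was lost without ANKRD9 replicate 2 or 3 and without pcDNA3.1 replicate 1 or 2. The number of higher kinases was 1 in every fit without a single library other than ANKRD9 replicate 1.

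The thioredoxin and glutaredoxin systems, which give electrons to the reductase, had 1 of 10 genes lower and 1 higher. Thioredoxin itself, TXN, did not pass, with 1251 ± 45.3 FPKM in the ANKRD9 libraries and 1304 ± 85.6 FPKM in the pcDNA3.1 libraries. TXNRD3 was 1.30-fold lower (limma, adjusted p = 5.29e-04). TXNRD1 was 1.11-fold higher (adjusted p = 0.0295), a call lost without any one of ANKRD9 replicates 2 and 3 and pcDNA3.1 replicates 2 and 3.

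Pyrimidine ring synthesis and CTP had 2 of 12 genes lower, CAD and UCK1, and 2 higher, UCKL1 and UCK2. All 4 differed by less than 1.2-fold and lost their calls without one library or another (ANKRD9 replicates 1 and 2 for CAD). With ANKRD9 replicate 2 left out none was lower and UCKL1 alone was higher. Of 12 deoxynucleotide removal and sanitation genes, NUDT5 was 1.28-fold lower (limma, adjusted p = 0.00833) and the nucleotidase gene NT5C3B 1.15-fold higher. The NT5C3B call was lost without any one of the ANKRD9 libraries or pcDNA3.1 replicate 3, and 2 genes were lower without pcDNA3.1 replicate 1 or 3. UCK1 and NT5C3B overlap genes on the opposite strand. Among 6 transporters only SLC25A36, a mitochondrial carrier of pyrimidine nucleotides, was called, 1.17-fold lower, and it stayed called only without ANKRD9 replicate 3 among the fits lacking a single library.

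Mitochondria have salvage kinases of their own. TK2, the mitochondrial thymidine kinase, did not pass, with a mean of 26.3 ± 0.408 FPKM in the ANKRD9 libraries and 26.0 ± 0.223 FPKM in the pcDNA3.1 libraries (SD, n = 3 each; limma, adjusted p = 0.746). DGUOK, the deoxyguanosine kinase, is the symbol of 2 genes in the table, which went opposite ways. Gene 770922 was 1.48-fold lower (adjusted p = 5.24e-04) and overlaps HNRNPH2 on the opposite strand, a gene at a mean of 253.5 FPKM. In the overlap the reads of these 2 genes cannot be told apart here, as the library kit, as named, does not mark strand. Gene 107054975 was 1.18-fold higher (adjusted p = 0.0244), a call lost without ANKRD9 replicate 2 or 3 or pcDNA3.1 replicate 1.

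Markers of other cells that such a culture can hold were also followed. Their counts stand beside 19.8% lower and 16.3% higher among all genes tested. Of 9 tested fibroblast markers 7 were lower and 1 higher, with a median log2 fold change of -0.59, against -0.42 for the supply genes. The 4 of smallest adjusted p were COL3A1, COL1A2, COL1A1 and PDGFRA. They were 2.02-fold, 1.59-fold, 1.51-fold and 1.61-fold lower with ANKRD9. The sum over the whole fibroblast list was 1736 to 1879 FPKM with ANKRD9 and 2156 to 2210 FPKM with pcDNA3.1. That sum takes in the 1 higher marker and others not named here, and differed by a smaller fold than each of the 4. Of 10 tested leukocyte markers 4 were higher and 0 lower, with sums of 95.5 to 104 FPKM with ANKRD9 and 71.1 to 80.8 FPKM with pcDNA3.1. At an unadjusted p under 0.05 there were 5 higher and 0 lower, and limma-voom gave the same counts, while 1 was lower without pcDNA3.1 replicate 1, without both libraries numbered 1 and with library weights. The 4 higher leukocyte markers were NCF1, SPI1, CD3E and RAC2. NCF1 made up much of the sums, at 41.7 FPKM with ANKRD9 and 24.3 FPKM with pcDNA3.1. SPI1, CD3E and RAC2 averaged 8.88, 3.64 and 4.61 FPKM with ANKRD9, against 5.90, 1.51 and 3.11 FPKM with pcDNA3.1. RAC2 lost its call without any single library other than pcDNA3.1 replicate 2. PTPRC, the common leukocyte antigen, averaged 2.18 FPKM with ANKRD9 and 1.75 FPKM with pcDNA3.1. The other 10 leukocyte markers in the table, CSF1R, CD4 and CD8A among them, had means under 1 FPKM. Of 3 tested endothelial markers 2 were lower and 1 higher, and CDH5, KDR and VWF were under 1 FPKM. All 5 erythroid markers in the table were under 1 FPKM. The part of these shifts in the falls of the supply genes was not tested.

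Genes with the most similar profiles were sought by the root mean square difference of log2(FPKM + 1) over the 6 libraries, after centring each gene. For RRM1 they were MELK, PRC1 and OLFML2B, at 0.028, 0.029 and 0.032. For RRM2 they were HTRA1, CHMP4C and EFEMP1, at 0.022, 0.022 and 0.023. TATDN1, TRMT5 and SGCE were closest to RRM2B, at 0.014, 0.015 and 0.019, and NDUFAF1, RPRD1B and CCDC124 to SAMHD1, at 0.016, 0.020 and 0.023. MELK, a kinase gene of dividing cells, stood at 6.64, 6.30 and 6.46 FPKM with ANKRD9 and at 10.8, 10.5 and 10.6 FPKM with pcDNA3.1. PRC1, a cytokinesis gene, overlaps RCCD1 on the opposite strand, TATDN1 overlaps RNF139 and RPRD1B overlaps TTI1. The measure rests on 6 libraries in 2 groups, so for the lowered genes it mostly reflects the size of the fall.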

How the data were processed

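RNA sequencing of 3 ANKRD9 and 3 pcDNA3.1 libraries was used. The authors deposited FPKM per gene, with gene length and position. Per the labels' protocols, polyadenylated RNA was made into libraries with a kit that, as named, does not mark strand. CASAVA and the genome build GRCg6a are named in the submitters' processing notes. For aligner, counter, strand setting and versions, the entry is: not given in the sources used here. Whole reads were recovered from FPKM times length, which came in equal steps for 100% of values above 0 (tolerance 0.01). The total implied by the deposited FPKM was 1.02% to 1.45% above their sum in the ANKRD9 libraries and -1.08% to -0.161% from it in the pcDNA3.1 libraries. Recovered reads are not independent molecules, so counting errors cover counting only.

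Those of the 24433 genes that averaged 1 FPKM or more (11685) were tested with limma 3.58.1 (R 4.3.3) on log2(FPKM + 1), group as the only term, eBayes with trend, and Benjamini-Hochberg adjustment over all of them at 0.05. This scale understates changes of low genes, and folds are ratios of mean FPKM. The code was run on simulated reads with a set spread and fewer changed genes than were called here. That run checks the code and does not measure how often calls are false in these data. Ratios were compared by exact permutation tests. The 10 genes and the 16 related lists were chosen with earlier results of these data known. Named genes were ANKRD9, the 10, up to 4 called genes of smallest adjusted p per list, and the 3 most similar profiles for RRM1, RRM2, RRM2B and SAMHD1. Not all that the rule takes are described, 1 gene of the folate list is not reported here, and others (such as PCNA, TXN, TK2 and NME2) were named after their values were seen. Chromosome names came from gene identifiers shared with NCBI's chicken table (GRCg7b, 80.7% matched), with no coordinates of that assembly. Replicate numbers were not used to pair the libraries in the main fit. No sequence was used here.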

Additional observations from a re-analysis of the deposited data

How the results depend on the processing

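The number of supply genes called lower lay between 6 and 8 in all 17 alternative fits, and none was called higher in any. RRM1, RRM2, DCTD, DUT, TYMS and TK1 remained lower in each of the 17, with adjusted p at most 0.0147 (limma). DTYMK lost its call in 8 and DCK in 13, and the cause was not tested. The log2 fold change of RRM2B ran from -0.059 to 0.022 when one library was left out. The number of all genes called higher ran from 1255 (without ANKRD9 replicate 2) to 1764 (without pcDNA3.1 replicate 1), against 1900 with all libraries; it was 2301 with library weights. With limma-voom 2268 were lower and 2472 higher, and after scaling to the sum of recovered reads 2006 were lower and 2242 higher, against 2310 and 1900 in FPKM as deposited. The median log2 fold change of all genes was 0.021 with limma-voom and 0.016 when scaled to the sum of recovered reads; both were chosen after seeing the data. Same-numbered libraries did not deviate together (Pearson's r of -0.196, 0.0336 and -0.0797 across genes). With the replicate number as a block, 7 supply genes were lower, 1693 of all genes were lower and 1420 higher, while the related lists gave 57 lower and 43 higher, against 76 and 56 without it. With 1 library of each group per replicate number, the block cannot change the mean differences. These stayed at 3.29 on the log2 scale for ANKRD9, 3.31 percentage points for the RRM2B share and 0.371 for the subunit ratio. The exact two-sided p of the share and of the ratio was 0.25 when signs were flipped within replicate numbers. That is the lowest that 3 pairs can reach, against 0.1 for the unpaired permutation test. A quasi-likelihood count test was planned and not run; limma-voom on the recovered reads was fitted instead. In the shallowest library, ANKRD9 replicate 2, TYMS had 172 reads, the fewest of any supply gene in any library. The part of depth in its low value there was not tested.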
